A study of Mus musculus with 5 samples.

Results

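The early step of motor neuron differentiation from embryonic stem cells to Day3 was described from 2 microarrays, 1 of mouse embryonic stem (ES) cells and 1 of the cells after 1 day of retinoic acid (RA), out of the 5 arrays of the time course. Both samples were wild type and male, the ES cells untreated, and the labels call the Day3 material embryoid bodies, the floating aggregates in which ES cells differentiate. RA and Shh were applied from day 2 of differentiation according to the labels, while the methods name the smoothened agonist SAG in place of Shh, and the study's scheme calls the stage neural epithelium. The Day2 array, taken after 8 h of RA, was left out of the comparison because its dim signals were raised. The levels on Day2, Day4 (2 days of RA) and Day7 (5 days of RA) are given only beside those of named genes. What is said of timing from Day2 carries the limit of its raised dim signals, also after normalization. Genes entered when their probe was well above background on the ES array, the Day3 array or both, which 15204 of the 19900 genes with a named probe were. Of these, 3922 changed at least 2-fold. Since each time point had a single array, replicate spread could not be measured, so no test was made and every fold is a description of these arrays.

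RA is made from retinol by dehydrogenases, carried by cellular binding proteins and destroyed by the Cyp26 enzymes. It acts through nuclear receptors, RARs paired with RXRs, that sit on response elements in the DNA, and the genes for one receptor and for the degrading enzymes are among its best known direct targets. In the embryo RA gives the hindbrain and cervical spinal cord their position by turning on the 3′ Hox genes, while withdrawal of pluripotency factors and of FGF signalling accompanies the change from epiblast to neural tissue.

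Both arrays lay on the same slide, as did Day2 and Day4. Day7 lay on another slide, so in Day7 levels time and slide cannot be told apart. On the ES array 59.2% of the 55681 mouse probes were well above background and on the Day3 array 57.5%, against 86.7% on Day2. The median SD of log2 signal between the spots of a probe printed 10 times was 0.075 in ES cells and 0.070 on Day3 and reflects printing and scanning, not variation between cultures. Changes are given as Day3 minus ES on the log2 scale, where 1 is a 2-fold rise. The markers given for the stage went partly with the label. Pax6, a transcription factor of neural progenitors, went from a quantile-normalized log2 signal of 6.77 to 10.21, a rise of 3.44, and Irx3, a homeobox gene of the intermediate neural tube, went from 7.78 to 9.95, a rise of 2.17. Cdh2, which encodes N-cadherin, went from 10.94 to 11.87, a change of 0.93 that stayed below 2-fold. Of the other neural progenitor markers, Hes5 rose by 3.0 and Sox1 by 1.49, and Nes, the intermediate filament nestin, changed by -0.09. All 3 ES cell markers that passed 2-fold were lowered, Pou5f1, Esrrb and Klf4, while Sox2, Zfp42 and Nanog stayed below 2-fold.

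Of the 15204 genes, 2365 were raised at least 2-fold (15.6%) and 1557 were lowered (10.2%). Most were well above background in both samples, 1791 of the raised and 1334 of the lowered genes, and the other 574 and 223 have only a lower bound, because the dim side was raised to at least the lowest value that any well-detected probe had on that array (log2 signal 4.18 in ES cells and 5.22 on Day3). Rises were the more numerous at each size counted: 631 genes rose and 353 fell at least 4-fold, 69 rose and 23 fell at least 16-fold, and 18 rose and 3 fell at least 64-fold. Around the threshold, 432 genes rose between 2-fold and 2.2-fold and 607 between 1.8-fold and 2-fold, and 298 fell just inside and 457 just outside in the same way. The median change of all genes was 0.06 on the log2 scale. The split between the directions depends on the scaling of the arrays. Raised genes were 60.3% of the changed genes with quantile normalization and 48.0% when arrays were instead shifted to their 75th percentile, a scaling that moved the median of all genes by -0.19. In bulk RNA, fewer cells of a type and less RNA per cell cannot be told apart.

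**Figure D1:**
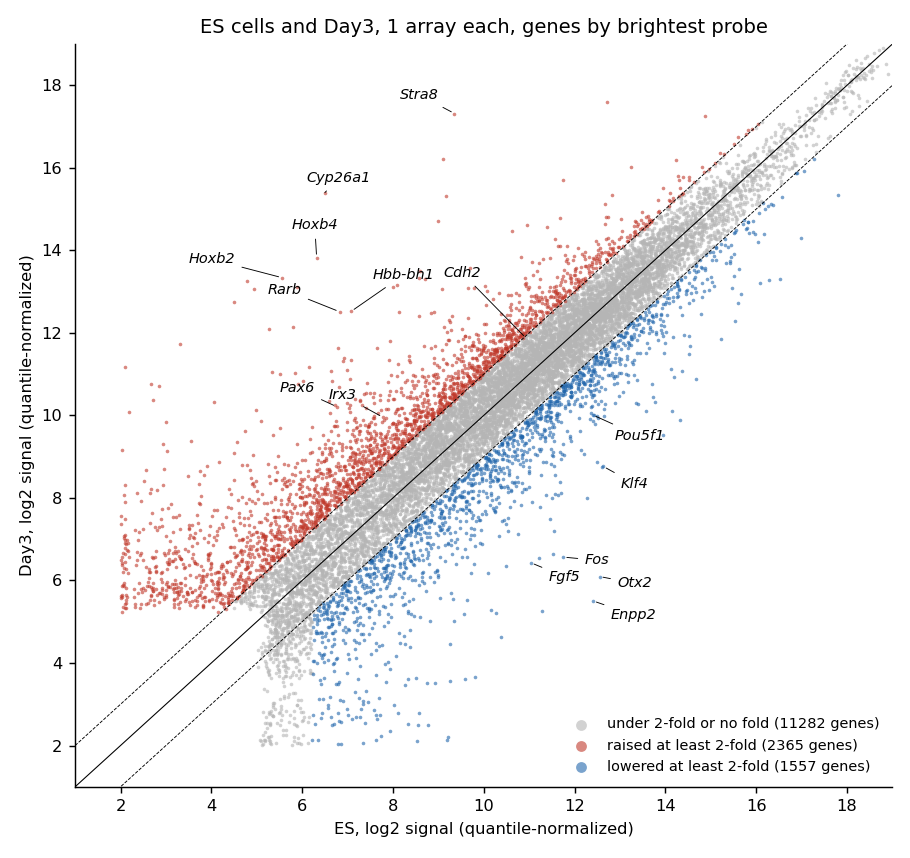
Quantile-normalized log2 signal of 15204 genes on the ES array (horizontal axis) and the Day3 array (vertical axis), 1 point per gene by its brightest probe, with values that were not well above background drawn as measured. Dashed lines mark 2-fold, red points are the 2365 raised and blue points the 1557 lowered genes counted with dim sides at their floor. Cyp26a1 and Stra8 lie farthest above the diagonal among the labelled genes, and Enpp2 and Otx2 farthest below it.

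Of the 25 genes listed for RA handling and its early targets, 23 had a value, 15 were raised and none was lowered by its brightest probe, against 15.6% raised and 10.2% lowered over all genes, and the median change was 2.64. Cyp26a1, the enzyme that degrades RA, showed the largest measured rise of any gene with a value, 477-fold. Its log2 signal was 6.50 in ES cells, then 13.66 on Day2 and 15.40 on Day3, then 15.22 on Day4 and 8.09 on Day7, so it was high after 8 h, highest on Day3 and low again on Day7. Cyp26b1, another degrading enzyme, rose by 5.03 on the log2 scale and was highest on Day4, at 14.71. Dhrs3, which turns retinaldehyde back into retinol, rose by 5.72, from 9.00 to 14.72. The genes that make RA did not share this: Rdh10 changed by -0.11 and Aldh1a2 by -0.36, with an Aldh1a2 log2 signal of 7.83 on Day3 and 14.85 on Day7.

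Among carriers, Stra6, the cell surface receptor for retinol uptake, was dim (not well above background) in the ES cells and rose at least 303-fold, with a measured log2 signal of 4.50 in ES cells, then 8.73 on Day2 and 12.74 on Day3, then 12.26 on Day4 and 9.56 on Day7. Crabp2, a cellular RA-binding protein, rose by 4.88, from 12.71 to 17.59. Crabp1 rose less by Day3, by 1.6, and more by Day4 and Day7, when its log2 signal was 13.35 and 14.15. The receptors differed among themselves. Rarb rose by 5.69, with a log2 signal of 6.82 in ES cells, then 12.09 on Day2 and 12.51 on Day3, then 12.77 on Day4 and 12.42 on Day7, Rara passed 2-fold narrowly with a rise of 1.01 (its second probe rose by 0.61, and the 75th percentile shift gave 0.66, both below 2-fold), and Rarg, Rxra, Rxrb and Rxrg changed by -0.56, 0.39, -0.14 and 0.26, all below 2-fold by their brightest probes. The second Rxrg probe, well above background in both samples, fell by 2.30. Nrip1, a corepressor recruited by liganded receptors, rose by 2.64.

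Rarb and Cyp26a1 are shown by their promoters because both hold the letters of a retinoic acid response element, a direct repeat of 2 receptor half-sites with 5 bases between them, and Hbb-y because it was the remaining gene raised more than 16-fold that holds one. The 250 bases before the start are from RefSeq (GRCm38.p6), read 5′ to 3′ on the gene's strand, and capitals mark the half-sites. The Rarb stretch is chr14:16575477-16575726 on the minus strand with the repeat from 53 to 37 bases before the start, the Cyp26a1 stretch chr19:37697558-37697807 on the plus strand with the repeat from 32 to 16 bases before it on the opposite strand, and the Hbb-y stretch chr7:103853208-103853457 on the minus strand with the repeat from 133 to 117 bases before it on the opposite strand.
Rarb: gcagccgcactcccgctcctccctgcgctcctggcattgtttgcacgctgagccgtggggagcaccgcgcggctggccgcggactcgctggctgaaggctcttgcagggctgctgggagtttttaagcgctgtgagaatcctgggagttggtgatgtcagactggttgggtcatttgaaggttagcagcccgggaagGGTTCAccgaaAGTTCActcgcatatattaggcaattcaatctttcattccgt
Cyp26a1: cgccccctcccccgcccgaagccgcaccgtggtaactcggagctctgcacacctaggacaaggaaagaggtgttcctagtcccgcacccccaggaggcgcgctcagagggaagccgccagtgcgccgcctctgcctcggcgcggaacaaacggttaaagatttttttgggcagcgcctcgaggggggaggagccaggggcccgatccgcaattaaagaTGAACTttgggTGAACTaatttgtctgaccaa
Hbb-y: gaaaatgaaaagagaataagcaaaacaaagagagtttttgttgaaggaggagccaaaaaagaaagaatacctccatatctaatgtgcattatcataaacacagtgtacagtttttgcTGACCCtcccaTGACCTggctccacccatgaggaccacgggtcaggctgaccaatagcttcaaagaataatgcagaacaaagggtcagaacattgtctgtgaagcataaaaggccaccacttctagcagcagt

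The half-site AGGTCA was searched together with its variants AGTTCA (changed at the third base), GGGTCA (changed at the first base) and GGTTCA (changed at both), on both strands, in windows of 250 bases before to 50 bases after each start. A repeat with 5 bases between was found for 31 of 27025 genes of the promoter table (0.115%) and one with 2 bases between for 84 (0.311%), and no 2 matches of different motifs overlapped. Among the 15204 genes with a value, 12129 (79.8%) were in the promoter table, too few for a share over the changed genes to be read. The 5-base repeat was held by 9 of them. Of those 9, named after their values were seen, 5 were raised, against 15.6% over all genes and 1842 of the 12129 in the promoter table. The 5 were Cyp26a1, Hbb-y, Rarb, Prokr2 (at least 2.62-fold) and Ppbp (at least 2.57-fold). Cfap45 was lowered, and Blvrb, Prss27 and Tnfsf13b stayed below 2-fold. The 2-base repeat was held by 12 genes with a value, of which 5 were raised and 2 lowered. No enrichment is read from these counts. None of the 9 Hox genes of paralog groups 1 to 5 in the promoter table held either repeat in this window. These matches are letters in a window, and binding was not measured.

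Stra8, which germ cells need to enter meiosis, rose by 7.96 on the log2 scale (249-fold). Its log2 signal was 9.36 in ES cells, then 16.65 on Day2 and 17.32 on Day3, then 17.32 on Day4 and 13.91 on Day7. Meis1 and Meis2, homeobox partners of Hox proteins, rose by 3.13 and 5.07. Tshz1, a zinc-finger gene of the trunk, rose by 4.77, and Tgm2, a transglutaminase, rose by 1.46. Ncoa7, another listed target, changed by -0.01, while its dimmer second probe gave a bound for a rise of 1.11. Zfp703, a zinc-finger repressor gene named for the size of its change, rose by 7.12, with a log2 signal of 9.10 in ES cells, then 14.53 on Day2 and 16.22 on Day3, then 15.62 on Day4 and 14.61 on Day7.

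All 15 Hox genes of paralog groups 1 to 5, the 3′ genes, were raised (against 15.6% over all genes), with a median change of 6.19 on the log2 scale and a range from 2.78 to 8.48. Of these, 8 were dim in the ES cells, below the detection flag, and have a lower bound only. In the HoxB cluster Hoxb2 rose by 7.78 (220-fold), Hoxb4 by 7.50 and Hoxb3 by 5.47, while the bound was 357-fold for Hoxb5 and 189-fold for Hoxb1. Their medians by cluster, with that of HoxA not reported here, were 7.56 in HoxB over 5 genes, 7.16 in HoxC over 2 and 4.52 in HoxD over 3. These medians mix measured changes with bounds. In the HoxA cluster Hoxa3 rose by 6.34 and Hoxa4 by 4.17.

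Time of appearance differed between Hox genes. Hoxb1 had a log2 signal of 3.32 in ES cells, then 11.24 on Day2 and 11.74 on Day3, then 11.36 on Day4 and 6.31 on Day7, high on Day2, Day3 and Day4 only. Hoxd4 had 5.84 in ES cells, then 6.16 on Day2 and 11.03 on Day3, then 13.27 on Day4 and 10.53 on Day7, and it stood near its ES level on Day2 but not on Day3. Hoxc4 had 4.94 in ES cells, then 9.06 on Day2 and 13.06 on Day3, then 13.63 on Day4 and 14.99 on Day7. Hoxd3 was dim both in ES cells and on Day2, not well above background, and rose at least 23.0-fold by Day3, and Hoxd1 rose at least 6.87-fold.

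Paralog groups 6 to 13 hold 24 Hox genes, of which 15 had a value, 8 were raised (53.3%, against 15.6% over all genes) and 1 was lowered (6.67%, against 10.2%), with a median change of 1.26, which became 0.40 without the filter on dim probes and 0.45 under normexp background correction. Of the 8 raised genes 4 were in HoxB: Hoxb6 by 7.22 on the log2 scale, Hoxb7 by 4.45, Hoxb8 at least 60.3-fold and Hoxb9 at least 22.5-fold, while Hoxb13 changed by 0.42. The other 4 raised genes were Hoxa7, which rose by 2.56, Hoxc9 (at least 13-fold), Hoxd8 (at least 8.23-fold) and Hoxd9 (at least 2.39-fold, but below 2-fold under several alternatives, at 0.98 on the log2 scale with the 75th percentile shift, 0.28 with normexp and 0 with a higher floor). Hoxc13 fell by 1.23, but was at -0.64 with normexp, below 2-fold. The 9 genes without a value were Hoxc8 and members of groups 10 to 13. Lower bounds made up 5 of the 8 rises. Those 5 genes were dim in the ES cells and had a value through their Day3 signal only. Genes dim in both samples were left out, so the 53.3% leans on members that entered by their Day3 signal. When genes dim in either sample were left out, the median change was 0.52.

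**Figure D2:**
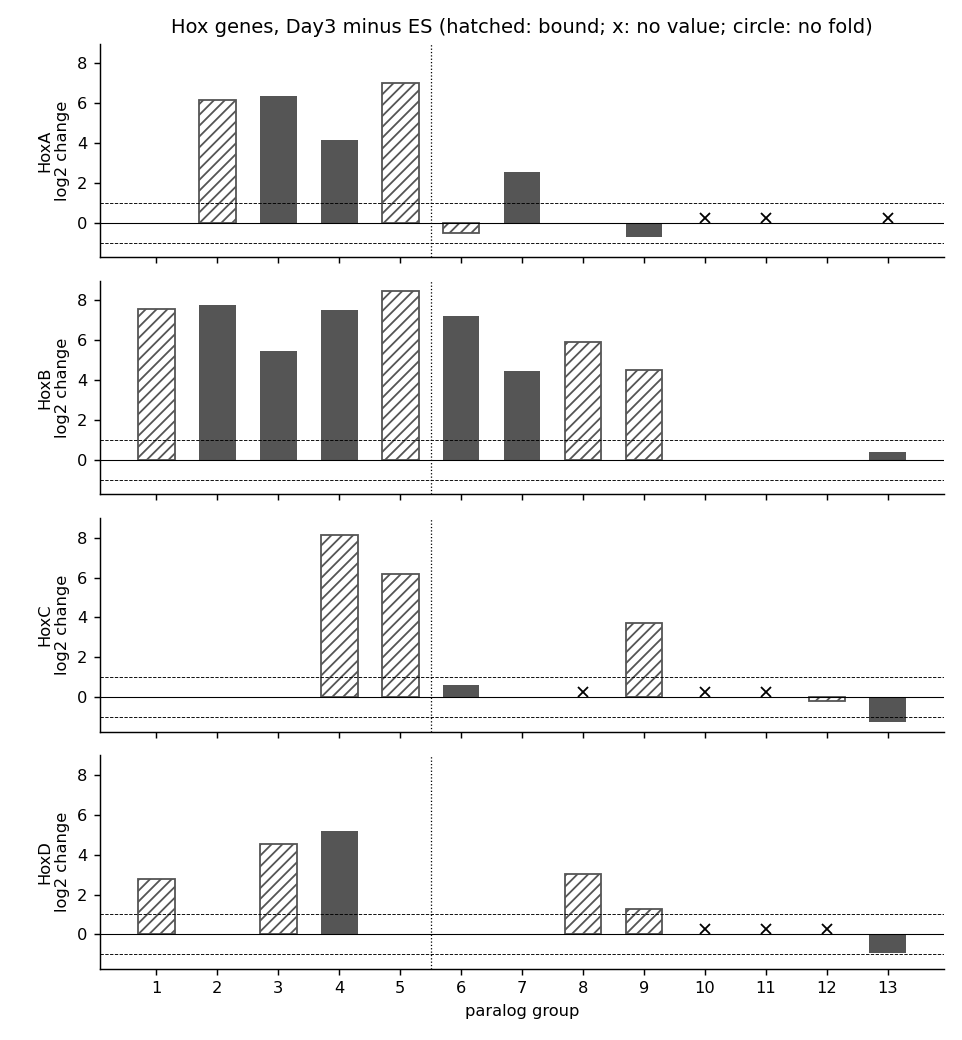
Log2 change from ES cells to Day3 of the Hox genes (vertical axis) by paralog group (horizontal axis), 1 panel per cluster. Filled bars are genes well above background on both arrays, hatched bars are lower bounds, a cross marks a gene with no value, the dotted line divides groups 1 to 5 from 6 to 13 and dashed lines mark 2-fold. Each gene drawn left of the dotted line, 14 of the 15, passes 2-fold, and right of it the raised genes run from group 6 to group 9.

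Of 19 other listed position genes 15 had a value, 1 was raised and 3 were lowered, in all near the share of changed genes in the whole table (25.8%). Cdx1, a caudal homeobox gene that responds to RA, rose by 3.99 and had a log2 signal of 9.07 in ES cells, then 13.82 on Day2 and 13.06 on Day3, then 11.45 on Day4 and 8.26 on Day7. Otx2, a homeobox gene of the epiblast, forebrain and midbrain, fell by 6.45 (87.7-fold), with 12.55 in ES cells, then 8.76 on Day2 and 6.10 on Day3, then 5.39 on Day4 and 7.48 on Day7. Hesx1, a forebrain repressor, fell by 1.96, and Egr2, which marks hindbrain segments and also answers growth factors, fell at least 8.90-fold. Gbx2 and Cdx2 changed by 0.44 and 0.13.

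Of 35 listed neural progenitor genes 32 had a value, 16 were raised (50%, against 15.6% over all genes) and 4 were lowered (12.5%, near the 10.2% over all genes), with a median change of 1.01. The largest changes were in transcription factor genes. Zbtb16, which encodes PLZF, went from a log2 signal of 5.35 in ES cells to 6.45 on Day2 and 11.06 on Day3, with 11.27 on Day4, a rise of 5.71 by Day3 of which little was present on Day2. The orphan nuclear receptor genes Nr2f1 and Nr2f2 rose by 5.10 and 3.34, and the second Nr2f1 probe rose by 5.16. Dbx1, a homeobox gene of intermediate spinal progenitors, was dim in the ES cells and rose at least 34.8-fold. Its log2 signal was 2.88 on Day2, 9.30 on Day3 and 11.39 on Day4.

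Pax6 had a log2 signal of 6.77 in ES cells, then 7.98 on Day2 and 10.21 on Day3, then 10.28 on Day4 and 5.17 on Day7, so that it was highest on Day3 and Day4 and below its ES level on Day7. Its second probe, dimmer and not well above background in ES cells, gave a bound of 1.12. Irx3 had 7.78 in ES cells, then 9.52 on Day2 and 9.95 on Day3, then 10.92 on Day4 and 11.97 on Day7, the order of the time points. Rfx4, Irx1, Nkx6-1 and Lhx2 rose by 3.49, 2.06, 1.88 and 1.8, and the second Rfx4 probe rose by 1.01. Cdh2 had 10.94 in ES cells, then 10.69 on Day2 and 11.87 on Day3, then 13.04 on Day4 and 14.81 on Day7, with its highest level at the end of the course, and its second probe fell by 0.13 from ES cells to Day3. The intermediate filament genes Nes and Vim changed by -0.09 and 0.37. The 4 lowered genes were Olig2, which marks motor neuron progenitors and fell by 2.47, and the zinc-finger genes Zic5, Zic2 and Zic1, which fell, with changes of -2.08, -1.74 and -1.02, although the second Zic1 probe went up by 0.66. Olig2 had a log2 signal of 10.34 in ES cells, then 8.47 on Day2 and 7.87 on Day3, then 11.47 on Day4 and 7.35 on Day7, lower on Day3 than in ES cells and higher on Day4.

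**Figure D3:**
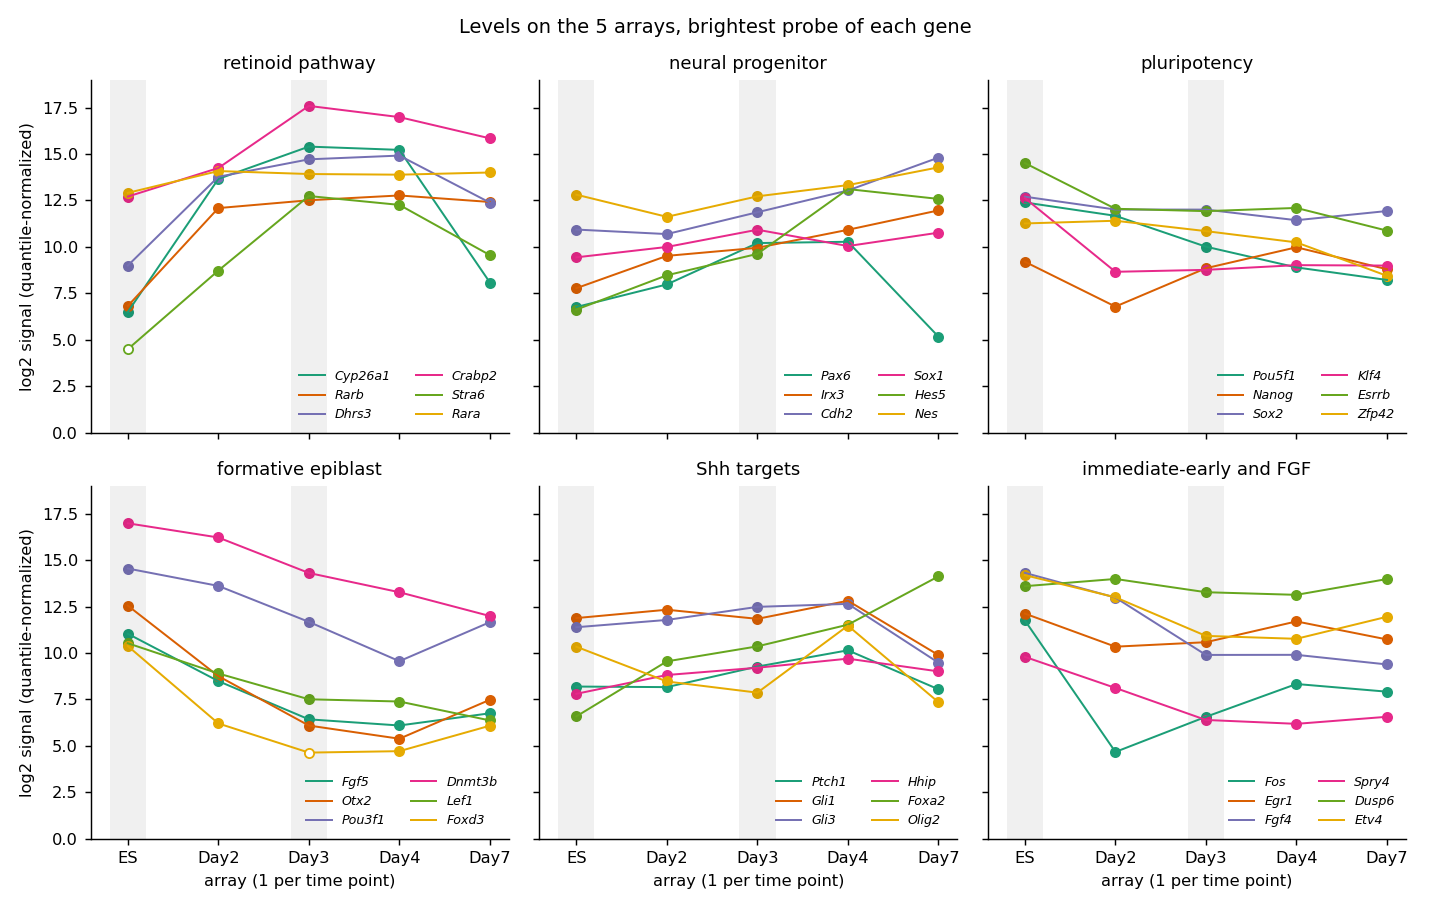
Quantile-normalized log2 signal (vertical axis) of 36 genes on the 5 arrays (horizontal axis, 1 array per time point, grey bands on ES and Day3), with filled points well above background and open points not. Levels are to be compared along a line, not between genes, and Day7 was on another slide. Cyp26a1 falls back by Day7, Cdh2 is highest on Day7, and Otx2 and Fgf5 are near their lowest level by Day3.

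The Shh pathway list had 17 of 18 genes with a value, of which 12 were raised (70.6%, against 15.6% over all genes) and 2 were lowered (11.8%, near the 10.2% over all genes), with a median change of 1.31. The ligand gene Shh was not well above background on either array and had a log2 signal of 12.71 on Day7. Its receptor gene Ptch1, itself a target of the pathway, went from 8.19 to 9.27, a rise of 1.08, and Hhip, another target that binds the ligand, rose by 1.40. Gli1, a further target, changed by -0.04. The co-receptor genes rose: Boc by 2.45, Gas1 by 1.94 and Cdon by 1.31. The second probes of Gas1 and Cdon rose by 0.10 and 0.63, below 2-fold. Smo, which passes the signal on, rose by 1.27 by its brightest probe and fell by 0.25 by its second. Gli2 and Gli3, the transcription factors of the pathway, rose by 1.65 and 1.1. With the 75th percentile shift Gli3 and Smo were below 2-fold, at 0.94 and 0.93, and Ptch1 was at 0.90 with normexp.

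Ventral transcription factor genes downstream of Shh were mixed. Foxa2, a factor of floor plate and of endoderm, had a log2 signal of 6.59 in ES cells, then 9.55 on Day2 and 10.36 on Day3, then 11.52 on Day4 and 14.12 on Day7, an increase along the whole course. Foxa1, Nkx6-1 and Nkx2-9 rose by 1.8, 1.88 and 1.64, Nkx2-2 fell by 1.02, with its call lost under normexp (-0.77) and, narrowly, with quantile normalization over the first slide, and Nkx6-2 changed by 0.53.

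Notch and proneural genes went both ways, with 4 raised (21.1%) and 6 lowered (31.6%) of 19 with a value, against 15.6% and 10.2% over all genes. The Notch target genes Hes5 and Hes3 rose by 3.0 and 1.78 and the modifier gene Lfng by 2.11, and Hes1 changed by 0.88. Hey1, Hes6 and Mfng of the same list fell, with changes of -1.48, -1.98 and -1.64, although the second Mfng probe changed by -0.46, below 2-fold. Hes5 was higher still on Day4, with a log2 signal of 13.11 against 9.63 on Day3. The ligand genes Dll3 and Jag1 fell, with changes of -2.22 and -2.18, and Dll1 changed by -0.34. Neurog2, a proneural factor of spinal progenitors, rose at least 3.57-fold, to a log2 signal of 6.02 on Day3 and 10.37 on Day4, and with normexp its change was 0.60. Neurod1, a neuronal differentiation factor, fell at least 17.3-fold, and its second probe gave a bound of similar size, -3.97 on the log2 scale.

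Neuron and motor neuron genes showed no common direction, with 6 raised and 6 lowered of 21 (28.6% each way, against 15.6% and 10.2% over all genes). Stmn2, a neuronal tubulin regulator, had a log2 signal of 13.06 in ES cells, then 11.48 on Day2 and 10.58 on Day3, then 10.13 on Day4 and 17.22 on Day7, so it fell by 2.48 to Day3 and was high on Day7. Nefl and Elavl3 fell, with changes of -1.94 and -1.31, and Tubb3 and Snap25 changed by -0.18 and -0.33. Isl1 and Lhx3, factors that specify motor neurons, fell, with changes of -1.84 and -1.89, although Isl1 was at -0.97 with normexp. Stmn3 and Lhx1 rose by 1.68 and 1.28.

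Of 29 pluripotency genes, all with a value, 21 were lowered (72.4%, against 10.2% over all genes), none was raised and 8 stayed within 2-fold, with a median change of -1.79. Fgf4, Tdgf1 and Tcl1 fell, with changes of -4.42, -4.04 and -3.97, and the 2 other Tdgf1 probes fell, with changes of -6.36 and -6.19. Klf4 had a log2 signal of 12.63 in ES cells, then 8.66 on Day2 and 8.77 on Day3, then 9.02 on Day4 and 9.00 on Day7, with the whole of its decrease present on Day2. Nr0b1 had 12.60 in ES cells, then 11.69 on Day2 and 8.74 on Day3, then 8.76 on Day4 and 7.98 on Day7, a decrease that came mostly between Day2 and Day3. Pou5f1, which encodes Oct4, had 12.39 in ES cells, then 11.68 on Day2 and 10.01 on Day3, then 8.90 on Day4 and 8.22 on Day7, lower at each later time point. Esrrb, Klf5, Utf1 and L1td1 fell, with changes of -2.59, -2.25, -2.87 and -3.22.

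Some core genes stayed within 2-fold at this stage. Sox2, which is shared by ES cells and neural progenitors, changed by -0.69, Zfp42 by -0.41, Sall4 by -0.10, Lin28a by -0.12 and Dppa5a by -0.85. Nanog had a log2 signal of 9.20 in ES cells, then 6.79 on Day2 and 8.85 on Day3, then 9.98 on Day4 and 8.80 on Day7, so that it was low on Day2 and near its ES level on Day3. The Nanog promoter is shown because it was the one promoter of a gene with a value that held the Sox-Oct composite, CATTGT and ATGCAA with 1 base between, searched on both strands and found for 3 of 27025 genes (0.0111%). The 250 bases before the start are chr6:122707239-122707488 on the plus strand (RefSeq, GRCm38.p6), and the composite in capitals lies on the opposite strand from 74 to 62 bases before this start. The promoter table gives 2 starts for Nanog, and the distance holds for the one shown.
Nanog: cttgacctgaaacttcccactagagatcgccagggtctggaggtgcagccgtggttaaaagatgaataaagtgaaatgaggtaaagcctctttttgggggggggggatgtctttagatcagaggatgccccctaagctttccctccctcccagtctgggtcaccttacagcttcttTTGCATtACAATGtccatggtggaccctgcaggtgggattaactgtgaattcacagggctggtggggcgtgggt

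Genes of the formative and primed epiblast, the state that follows naive pluripotency, were lowered more often than not. Of 12 genes, 8 were lowered (66.7%, against 10.2% over all genes) and none was raised, with a median change of -2.54. Fgf5 had a log2 signal of 11.04 in ES cells, then 8.49 on Day2 and 6.43 on Day3, then 6.10 on Day4 and 6.76 on Day7, so most of the decrease was present by Day3. Foxd3, dim on Day3, fell at least 35.6-fold. Lef1, Pou3f1, Dnmt3b, Grhl2 and Zic2 fell, with changes of -3.02, -2.87, -2.67, -2.40 and -1.74. Sox3, also a neural progenitor gene, and the claudin gene Cldn6 changed by 0.77 and 0.96, and Nodal by -0.31. Among DNA methylation enzymes, 2 of 8 were lowered (25%, against 10.2% over all genes). They were Dnmt3b, whose 2 other probes fell, with changes of -1.83 and -2.22, and Dnmt3l, which fell by 1.92. The maintenance enzyme gene Dnmt1 changed by 0.82 and Dnmt3a by -0.18.

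Of 19 FGF signalling genes, 11 were lowered (57.9%, against 10.2% over all genes) and 3 were raised (15.8%, near the 15.6% over all genes), with a median change of -2.02. The ligand genes Fgf5, Fgf4, Fgf15 and Fgf18 fell, with changes of -4.61, -4.42, -2.73 and -1.58, and Fgf8 changed by 0.03. The feedback inhibitor genes Spry4 and Spry1 fell, with changes of -3.40 and -2.02, Spry2 fell at least 6.41-fold, and the phosphatase gene Dusp4 fell by 2.26, whereas Dusp6 changed by -0.33. The transcription factor genes Etv4, Etv5 and Etv1, which FGF turns on, fell, with changes of -3.27, -2.73 and -2.30, and the second Etv1 probe gave a bound of -0.91. The 3 raised genes were receptors, Fgfr4 by 1.5, Fgfr2 by 1.40 and Fgfr3 by 1.03, and their second probes rose by 1.03, 1.67 and 1.0. Without normalization Fgfr2 and Fgfr3 were below 2-fold, at 0.95 and 0.55. The remaining receptor gene, Fgfr1, changed by 0.89 by its brightest probe, while its other probes rose by 1.78, past 2-fold, and 0.71.

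The response to LIF, the cytokine that sustains mouse ES cells through STAT3, was lowered in 8 of 14 genes (57.1%, against 10.2% over all genes) and raised in none, with a median change of -1.26. Socs3, a feedback inhibitor of the pathway, fell by 3.06, from 13.36 to 10.30, Lifr, the receptor, fell by 2.97 and Stat3 fell by 1.61. Fos, an immediate-early gene on the same list, fell by 5.18 (36.3-fold), with a log2 signal of 11.75 in ES cells, then 4.67 on Day2 and 6.57 on Day3, then 8.33 on Day4 and 7.92 on Day7, lowest on Day2. Il6st and Pim1 changed by 0.18 and 0.31.

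Of the Nodal and BMP genes, 9 were lowered (42.9%, against 10.2% over all genes) and 3 were raised (14.3%, near the 15.6% over all genes) of 21 with a value. Lefty2, Gdf3, Bmp4, Fst and Smad7 fell, with changes of -1.24, -1.84, -2.56, -2.98 and -3.14. The other Bmp4 probe stayed below the detection flag on both arrays, and the mean of its probes was -0.85. The BMP target genes Id1, Id2 and Id4 fell, with changes of -2.36, -1.80 and -2.17, and Id3 changed by -0.32. Id1 had a log2 signal of 13.17 in ES cells, then 8.31 on Day2 and 10.81 on Day3, then 13.39 on Day4 and 11.77 on Day7, lowest on Day2 and above its ES level by Day4. The raised genes were the ligands Bmp2 and Bmp7, by 2.90 and 2.09, and the inhibitor Smad6, by 1.29. Of 23 Wnt genes with a value 5 were raised (21.7%) and 2 lowered (8.70%), against 15.6% and 10.2% over all genes. Sfrp5, a secreted Wnt antagonist, rose by 4.37 and had a log2 signal of 8.13 in ES cells, then 9.27 on Day2 and 12.51 on Day3, then 11.65 on Day4 and 6.25 on Day7. Fzd2, a Wnt receptor, rose by 2.69, and the target gene Axin2 rose by 1.28 by its brightest probe only. Wnt3 fell at least 4.75-fold.

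Of 19 cadherin, claudin and keratin genes with a value, 5 were raised (26.3%, against 15.6% over all genes) and 2 were lowered (against 10.2%). Cdh1, the E-cadherin gene of ES cells, went from 13.79 to 13.48, a change of -0.30, and reached 9.15 on Day7. Epcam changed by -0.16, Cdh3 fell by 1.47 and Cldn5 fell by 2.06, while Cdh6, Cldn3 and Ncam1 rose by 1.58, 1.53 and 1.11. In the extracellular matrix list 5 of 18 were raised (27.8%, against 15.6% over all genes) and 1 lowered (5.56%, against 10.2%). Col2a1 and Col1a2, which encode fibrillar collagens, rose by 3.03 and 2.94, and the basement membrane collagen genes Col4a1 and Col4a2 by 1.59 and 2.01. The fifth, Col9a1, rose at least 4.22-fold by its brightest probe over the 5 arrays, and the other probe went down. Its change was 0.67 with normexp, 0.53 as the mean of its probes and 0.75 with a higher floor, all below 2-fold. Laminin genes, Sparc and Fn1 stayed within 2-fold, and Spp1 fell by 1.77.

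Germ cell genes were raised in 3 cases (16.7%) and lowered in 4 (22.2%) of 18, against 15.6% and 10.2% over all genes. Besides Stra8, Rec8, the meiotic cohesin, rose by 3.95, from 11.75 to 15.70, and Sohlh2 rose by 1.30. Meiotic and germ line genes Sycp3, Ddx4 and Tdrd12 fell, with changes of -1.34, -1.06 and -2.06, and Sycp1 and Dazl changed by -0.89 and 0.55. Genes of the 2-cell-like state, a rare state of ES cell cultures that resembles the early embryo, had 7 of 10 members with a value. Of these 7, 5 were raised (71.4%, against 15.6% over all genes) and 1 was lowered (14.3%, against 10.2%). Zscan4f had a log2 signal of 5.09 in ES cells, then 7.10 on Day2 and 9.87 on Day3, then 12.46 on Day4 and 10.35 on Day7, dim at the start, and rose at least 27.5-fold. Zscan4c rose at least 25.6-fold, and its 2 other probes gave bounds of 3.88 and 2.03. These genes are near-identical copies and their probes may not tell them apart. The median of this list, 1.36, rested on bounds for 4 of the 5 raised genes and ranged from 0.17 to 2.60 with the handling of dim probes.

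Glycolysis and hypoxia response genes were lowered in 7 of 20 cases (35%, against 10.2% over all genes) and raised in 1 (5%, against 15.6%). Ldha, which makes lactate, fell by 2.47, and its other probes fell, with changes of -1.82 and -2.01. Pdk1, Ankrd37, Egln3, Hk2 and Bnip3 fell, with changes of -2.49, -2.41, -2.31, -2.06 and -2.01. The glucose transporter genes Slc2a1 and Slc2a3 changed by 0.92 and 0.63, Eno1 by -0.05, and Vegfa rose by 1.20 by its brightest probe and by 0.66, below 2-fold, by its second. Cell cycle genes showed a median change of 0.03, with 2 raised (8.70%) and 4 lowered (17.4%) of 23, against 15.6% and 10.2% over all genes. Among them Ccnd2 rose by 3.29 while Mycn, Myc, Ccnd1 and Ccne1 fell, with changes of -3.03, -1.82, -1.21 and -1.19, and Cdk1, Ccnb1 and Mcm2 changed by -0.78, -0.16 and 0.13. The second Ccne1 probe changed by -0.54, below 2-fold.

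The share over all genes was 15.6% raised and 10.2% lowered, and the next counts are to be read beside it. Stress response genes were raised in 1 and lowered in 2 of 13 cases. Imprinted genes were raised in 4 and lowered in 2 of 16 cases, with Ndn at 1.49 and Phlda2 at -2.52. Of 16 housekeeping genes, often used as constant references, 3 were raised and 3 lowered, and the median change was -0.10. Actb, Gapdh and Ppia changed by -0.13, -0.08 and -0.22, whereas Hprt fell by 2.08 and Tfrc fell by 1.46, and Gusb, B2m and Ywhaz rose by 1.48, 1.27 and 1.12. The other Ywhaz probes changed by 0.02 and 0.48, below 2-fold. Tbp fell, with a change of -1.23 by its brightest probe and -0.19 by the other.

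**Figure D4:**
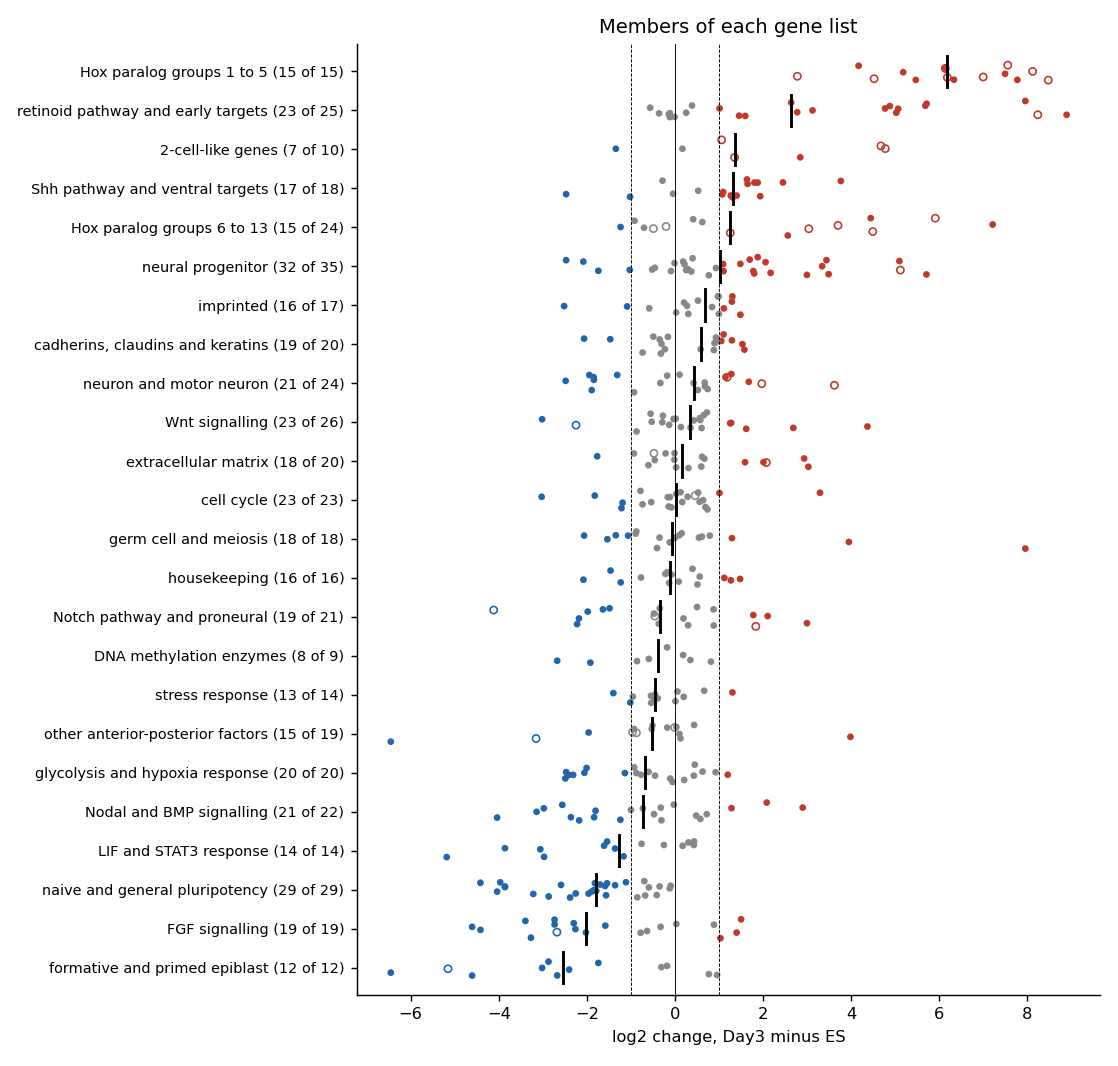
Log2 change from ES cells to Day3 (horizontal axis) of the members of each gene list (rows, with members that have a value out of those listed, cell type markers not drawn), 1 point per gene (red raised, blue lowered, grey below 2-fold), open points for lower bounds, a bar for the median and dashed lines at 2-fold. Hox groups 1 to 5 and the retinoid list lie farthest to the right, and the formative epiblast and FGF lists farthest to the left.

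Some markers of other cell types also passed 2-fold, in lists of at most 12 genes, against 15.6% raised and 10.2% lowered over all genes. Of 12 mesoderm and endoderm markers, 8 had a value, 3 were raised and 2 were lowered, and the median log2 signal of those 8 was 6.91 in ES cells and 8.21 on Day3. The raised ones were Foxa2, Sox17, by 2.15, and Gata6, by 1.61 (0.90 with normexp), the mesoderm genes T and Eomes fell, T at least 3.85-fold and Eomes with a change of -1.39, and Mixl1, Mesp1, Cer1 and Afp were not well above background on either array. Of 10 fibroblast or feeder cell markers, 7 had a value, 2 were raised (Col1a2 and Acta2, by 2.46) and 3 were lowered (Thy1, Dcn and S100a4, with changes of -2.73, -1.40 and -1.02), and Lum, Postn and Lox had no value. The median log2 signal of those 7 was 8.31 in ES cells and 8.26 on Day3. Trophoblast markers were lowered in 2 of 5 cases, Ascl2 and Hand1, with changes of -2.55 and -1.41, and neural crest and surface ectoderm markers in 2 of 6, Foxd3 and Snai2, and neither list had a raised member. Neuron markers were raised in 2 and lowered in 2 of 6 cases. The part of such cells in the changes above was not tested.

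Several of the largest changes fell outside the lists. Enpp2, the enzyme autotaxin that makes lysophosphatidic acid, had the largest measured fall, a change of -6.90 on the log2 scale (119-fold), with a log2 signal of 12.40 in ES cells, then 9.04 on Day2 and 5.5 on Day3, then 5.11 on Day4 and 13.72 on Day7, low on Day3 and Day4 and high on Day7. Glod5 fell by 6.03, the kinase gene Sgk1 fell by 4.43, and Khdc3, a gene of the egg and early embryo, fell by 4.36. Olig1, the neighbour of Olig2, fell by 4.27, with 12.28 in ES cells and 8.01 on Day3. Fosb and Egr4, immediate-early genes like Fos, fell, with changes of -4.68 and -4.11. Arg1, which encodes arginase, was dim in the ES cells and rose at least 92.3-fold. Among the bounds for falls, Krt17, a keratin, fell at least 29.4-fold, Slpi, a protease inhibitor, fell at least 16.3-fold, and the protocadherin gene Pcdh17 fell at least 20.3-fold.

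Different probes of a gene give a view of technical error in the changes. In 3540 genes 2 or more probes were well above background on the ES and Day3 arrays alike, and the median SD of their changes was 0.31. Of 369 of these genes whose brightest such probe passed 2-fold upwards, 314 (85.1%) went up by every such probe and 183 (49.6%) passed 2-fold by every probe. Of 326 that passed 2-fold downwards, 278 (85.3%) went down by every probe and 135 (41.4%) passed 2-fold by every probe. With bounds included, the changes of the brightest and second probe had a Pearson correlation of 0.64 across 3958 genes, which are not independent replicates. Probes of a gene can also read different transcripts.

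**Figure D5:**
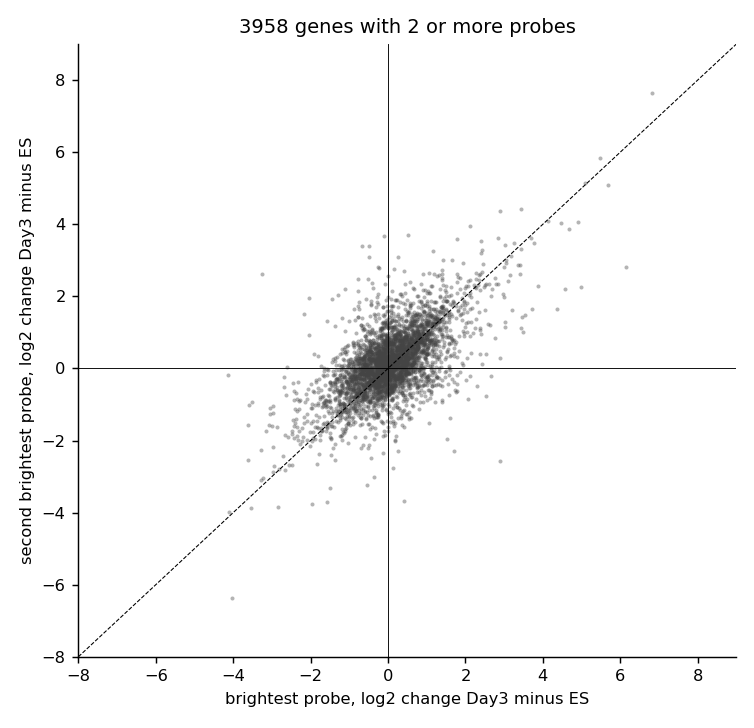
Log2 change from ES cells to Day3 by the brightest probe (horizontal axis) and the second brightest probe (vertical axis) of 3958 genes with 2 or more probes, 1 point per gene, with equality as a dashed line. Around 2-fold the points scatter widely to both sides of the line, and of the large rises Nr2f1 (5.10 and 5.16) lies near it.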

How the data were processed

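RNA of 5 samples, 1 per time point, was hybridised to 1-colour Agilent arrays. The authors deposited scanner output (Agilent Feature Extraction 10.5.1), whose intensity is a background-subtracted, detrended spot signal, and other flag columns per the file headers, and a deposited log2 table, each array at its 75th percentile, used as an alternative only. Control and outlier spots were left out, the processed intensity was taken to log2, spots of a probe were averaged and the 5 arrays quantile-normalized (limma 3.58.1, R 4.3.3, Python 3.11.15). Of 55681 mouse probes, 26307 were named through RefSeq, 26300 by accession and 7 by the file's name, giving 19900 genes, of which 5340 had several probes; the brightest over 5 arrays stood for a gene. A probe counted as well above background where the software's flag said so on over 50% of its spots. Groups came from the sample titles. Negative controls had raw medians of 61 in ES cells and 35.5 on Day3, no spot was saturated, and the number of arrays limits the precision.

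Named genes were list members, the 15 largest measured rises and falls, and the 10 largest bounds each way. Members and lists were chosen with earlier results of these data known. The alternatives tried were 6 ways of scaling or background correction, other detection rules, probe choices, naming and thresholds. A few listed genes are counted in their lists but not reported here. Scripts were tested on simulated data.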

Additional observations from a re-analysis of the deposited data

How the results depend on the processing

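With 1 array per time point no replicate could be left out, a slide block could not be fitted, and no test was made. No paired analysis was possible because a single array per time point leaves no pairs. Of 5748 values for 446 named genes under the alternatives, 5297 lay within 1.5-fold of the value given and 450 lay farther off. The remaining 1 reversed, Col9a1 at -0.86 with the brightest probe over ES cells and Day3. A reversal was counted only where the change given was at least 2-fold. Smaller changes also turned sign, such as Krt18, at 0.59 and at -0.35 without normalization. Of 403 values for the 31 list medians, 368 stayed within 1.5-fold. The probes below background on 1 array are limited by the floor of that array, and a scaling decides where no change lies. The causes were not tested.

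The share of raised among changed genes, 60.3%, was 48.0% with the 75th percentile shift (2122 raised, 2296 lowered) and 47.9% in the authors' table. Without normalization, which moved the median of all genes by -0.69, 1089 genes were raised and 5001 lowered, a share of 17.9%. Normexp background correction gave 1504 raised genes, and both the looser detection flag (positive and significant) and no filter on dim probes gave 2423 lowered genes. At 1.5-fold 4183 genes were raised and 3141 lowered, and at 4-fold 631 and 353. Of the 3922 changed genes, 93.0% stayed changed on the same side with the 75th percentile shift, 67.5% without normalization, 67.4% with normexp and 87.5% with the mean over probes, where 20 turned sign.

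Without normalization the median log2 change was -2.32 for ES cell markers, -0.47 for neuron, -0.62 for mesoderm and endoderm, -1.27 for fibroblast or feeder cell and -0.88 for neural crest and surface ectoderm markers. It was -2.46 for naive and general pluripotency, -3.37 for formative and primed epiblast, 0.38 for neural progenitor, 1.97 for retinoid pathway, 0.47 for Hox paralog groups 6 to 13 and -1.10 for other anterior-posterior genes. Signalling lists stood at -1.31 for Nodal and BMP, -2.70 for FGF and -1.97 for LIF and STAT3. The remaining lists were at -0.35 for cadherins, claudins and keratins, -0.79 for germ cell, 0.58 for 2-cell-like, -0.98 for DNA methylation, -1.41 for glycolysis and hypoxia, -1.36 for stress, -0.76 for cell cycle, 0.0501 for imprinted and -0.51 for extracellular matrix genes.

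With normexp the median was 4.89 for Hox paralog groups 1 to 5, 0.45 for groups 6 to 13 and 0.38 for 2-cell-like genes. For Hox groups 6 to 13 and 2-cell-like genes it was 0.42 and 2.60 with the looser detection flag, 0.40 and 2.60 without a filter, 0.52 and 0.17 with genes well above background on both arrays, and 0.62 and 0.19 with the floor at the 5th percentile, an alternative added after seeing the data. Under normexp Eomes (-0.95), Snai2 (-0.83), S100a4 (-0.69), Ddx4 (-0.99), Zic1 (-0.90), Smad6 (0.88), Lhx1 (0.87) and Fgfr3 (0.92) also lay below 2-fold. With the mean over probes the retinoid list was at 1.79 and Zic1 was at -0.18, below 2-fold.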

Other observations

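Gene families outside the lists were picked by name pattern after values had been seen, and are given as counts with no test, to be read beside the shares over all genes, 15.6% raised and 10.2% lowered. Of 11 globin genes, which carry oxygen in red blood cells, 7 had a value and 5 were raised. Hbb-bh1, an embryonic form, had a log2 signal of 7.08 in ES cells, then 10.65 on Day2 and 12.52 on Day3, then 12.27 on Day4 and 8.53 on Day7, highest on Day3, and rose by 5.44. Hbb-y and Hba-x, also embryonic, were dim in ES cells and have bounds for their rise, 113-fold and 95.3-fold, and the second Hbb-y probe gave a bound of 7.64 on the log2 scale. The adult genes Hba-a1 and Hba-a2, which are near-identical copies, rose by 3.07 and 2.91. Collagen genes were raised in 17 of 31 cases and lowered in none, among them Col6a1 by 2.73 and Col6a2 by 2.34. Semaphorin, plexin and neuropilin genes, which guide axons and cell movement, were raised in 13 and lowered in 4 of 29 cases, with Plxna2 at 3.88 and Nrp2 at -3.63.

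Of 17 Sox genes with a value 6 were raised and none was lowered, including Sox9, which rose at least 5.19-fold, and Sox4, by 1.76. Fox genes were raised in 9 and lowered in 4 of 37 cases, and the bound was 36.9-fold for Foxc1 and 30.9-fold for Foxb1. Of 10 genes of the Fos, Jun and Egr families, 6 were lowered and 1, Jund, rose by 1.19, while Jun and Junb changed by -0.43 and -0.76. Ephrin and Eph receptor genes were raised in 4 and lowered in 4 of 19 cases, with Efnb1 at 2.64 and Epha2 at -3.27. None of 82 ribosomal protein genes and none of 36 NADH dehydrogenase subunit genes changed 2-fold, with changes between -0.96 and 0.53 and between -0.50 and 0.98. Of 1061 olfactory receptor genes, 161 had a value, 28 were raised (17.4%) and 25 were lowered (15.5%), of which 25 and 13 were bounds. Keratin genes were raised in 5 and lowered in 6 of 29 cases, serpins in 9 and 8 of 33, and potassium channel genes in 14 and 4 of 54, and 1 of 38 proteasome subunit genes was lowered.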
